A study of Mus musculus with 2 samples.

Results

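Chemokine receptors decide where myeloid cells go, and the RNA of 6 of them was measured in single bone marrow cells of mice with severe aplastic anemia (SAA) and of radiation controls (RC). The genes were *Ccr1*, *Ccr2*, *Cx3cr1*, *Cxcr2*, *Cxcr4* and *Ccrl2*, chosen by symbol from the 31053 genes in the deposited matrices. All 6 were found, and their Ensembl identifiers matched the GENCODE M21 annotation of GRCm38. Both groups were F1 hybrids of C57BL/6 and Balb/c mice exposed to 300 rads. SAA mice then received 65000000 B6 splenocytes, and RC mice received no cells. Marrow of femurs and tibias was sorted for 7-AAD−CD11b+Ly6C+Ly6G- cells, and each group was pooled from 3 mice into 1 library. There were thus no replicates, no test between SAA and RC mice was possible, and every difference below compares 2 libraries. Cells derived from the transferred splenocytes were not told apart from host cells.

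Chemokine receptors are serpentine membrane receptors that couple to inhibitory G proteins and steer cells along gradients of their ligands. In the marrow, CXCR4 binds stromal CXCL12 and holds neutrophils and progenitors in place. CXCR2, the receptor of CXCL1 and CXCL2, draws neutrophils out into the blood. CCR2, the receptor of CCL2 and CCL7, is needed for Ly6C-high monocytes to leave the marrow. CX3CR1, the fractalkine receptor, increases as monocytes mature toward the patrolling Ly6C-low state. CCR1 answers several inflammatory CC chemokines. CCRL2 is an atypical receptor that binds chemerin without the usual G protein signal.

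The coding sequence around the DRY box is shown for 5 of the receptors because it sets the atypical member apart. This motif of aspartate, arginine and tyrosine lies at the inner face of the receptor and takes part in G protein coupling. Each stretch has 36 bases, 5′ to 3′, from the GENCODE M21 transcripts, and capitals mark the codons of the motif. For *Ccrl2*, capitals mark the codons that align with those of *Ccr1*.

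*Ccr1*: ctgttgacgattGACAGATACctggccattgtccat
*Cx3cr1*: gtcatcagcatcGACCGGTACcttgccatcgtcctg
*Cxcr2*: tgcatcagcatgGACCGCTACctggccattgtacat
*Cxcr4*: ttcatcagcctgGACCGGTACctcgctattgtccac
*Ccrl2*: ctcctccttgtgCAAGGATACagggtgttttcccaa

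*Ccr1*, *Cx3cr1*, *Cxcr2* and *Cxcr4* all open the motif with an aspartate codon, and *Ccrl2* does not. *Ccr1* (GRCm38 chr9:123962124-123968692, minus strand), *Ccr2* (chr9:124101950-124113557, plus), *Cx3cr1* (chr9:119901616-120069879, minus) and *Ccrl2* (chr9:111054486-111057519, minus) lie on chromosome 9. *Cxcr2* (chr1:74153989-74161246, plus) and *Cxcr4* (chr1:128588199-128592293, minus) lie on chromosome 1.

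A barcode was kept if it held at least 1000 genes, which left 729 of 825 barcodes in SAA and 662 of 798 in RC. The libraries held 5592265 and 4066589 unique molecular identifiers (UMIs), each standing for 1 captured transcript. A cell was called monocyte-like if the UMIs of *Csf1r*, *F13a1*, *Ms4a6c* and *Ly86* outnumbered those of *Camp*, *Ngp*, *Fcnb*, *Cebpe*, *Elane*, *Mpo*, *Prtn3* and *Ctsg*, and granulocyte-like in the opposite case. Monocyte-like cells numbered 258 (35.4%) in SAA and 336 (50.8%) in RC, and granulocyte-like cells 435 (59.7%) in SAA and 323 (48.8%) in RC. The other 36 SAA and 3 RC cells had equal sums, and in the SAA ones 10 markers of T or NK cells summed to 6376 UMIs per 1000000. Over the 12 monocyte markers, the sum was 17033 and 25859 UMIs per 1000000 in monocyte-like cells of SAA and RC. The sum over 16 granulocyte markers was 795.4 and 445.7 in these cells, against 76772 and 94284 in granulocyte-like cells of SAA and RC. The gate left out Ly6G+ cells, yet *Ly6g*, the gene of the gated neutrophil antigen, was at 128.5 and 134.4 UMIs per 1000000 in granulocyte-like cells of SAA and RC. The libraries shared 1 barcode, and no barcode was retained in both.

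Levels are given as UMIs of the gene per 1000000 UMIs of the class (CPM), with exact Poisson 95% intervals. The SAA to RC ratio of CPM carries an exact conditional binomial 95% interval, and shares of cells carry Clopper-Pearson intervals. These intervals reflect counting error alone, and the spread between mice is unknown. Since capture differs between genes, CPM was compared between libraries and between classes but not between genes. A difference is called here when a gene with at least 20 UMIs over both libraries was at least 2-fold higher or lower in SAA. Over all genes with that many UMIs, 7.3% were called higher and 8.83% lower in monocyte-like cells, and 6.8% higher and 4.92% lower in granulocyte-like cells.

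In monocyte-like cells of the SAA library, the fractalkine receptor gene was close to undetected, and *Cxcr4* and *Ccr2* were lower than in RC. *Ccr1* was the only member with at least 20 UMIs that was higher in SAA. In granulocyte-like cells *Cxcr2*, *Ccr2* and *Ccr1* were each over 2-fold higher in SAA, and *Cxcr4* was lower.

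**Figure D1:**
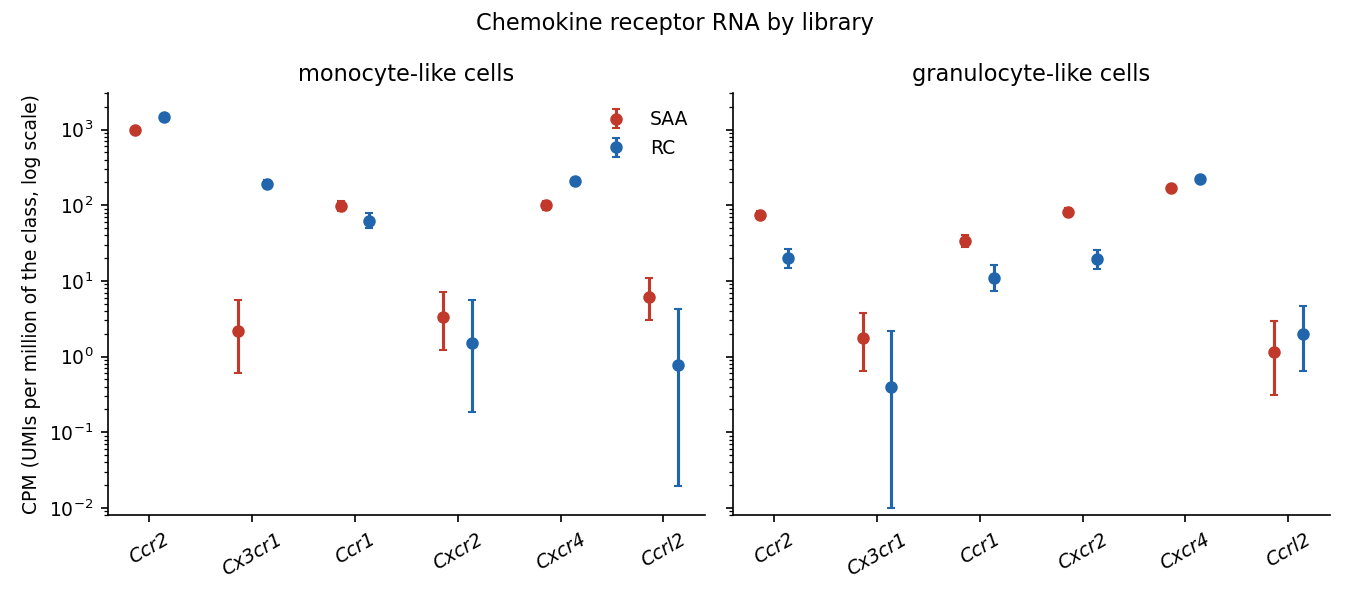
CPM of each receptor (log scale) in monocyte-like and granulocyte-like cells of the SAA library and the RC library, with exact Poisson 95% intervals. *Cx3cr1* in monocyte-like cells stands at 2.20 CPM in SAA and 189.6 CPM in RC, and *Cxcr2* in granulocyte-like cells at 82.0 CPM in SAA and 19.4 CPM in RC.

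Among the egress receptors of monocyte-like cells, *Cx3cr1* differed most between the libraries. It had 4 UMIs in 4 of 258 SAA cells, against 248 UMIs in 143 of 336 RC cells. The level was 2.20 CPM (0.598–5.62) in SAA and 189.6 CPM (166.7–214.7) in RC, a ratio of 0.0116 (0.00313–0.0300). No SAA cell held more than 1 UMI of it, while 5 RC cells held 5 or more. With each cell thinned at random to 2600 UMIs, 0.823% of 243 SAA cells and 30.9% (25.4–36.9%) of 262 RC cells held a UMI. Granulocyte-like cells, which should lack the gene, held it in 0.468% of thinned SAA and 0.311% of thinned RC cells, so the SAA monocyte-like share was at the level of background. The thinned cells had equal depth, whereas before thinning the median depth of monocyte-like cells was 5988.5 UMIs in SAA and 3324.5 in RC.

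*Ccr2* was present in nearly every monocyte-like cell of both libraries and was lower in SAA. It had 1825 UMIs in 243 of 258 SAA cells and 1921 UMIs in 325 of 336 RC cells. The level was 1002 CPM (956.3–1049) in SAA and 1468 CPM (1404–1536) in RC, a ratio of 0.682 (0.640–0.728), which was not past 2-fold. After thinning, 84.8% (79.6–89.0%) of SAA and 94.7% (91.2–97.0%) of RC cells held a UMI. The 10 cells with the most *Ccr2* held 10.7% of its UMIs in SAA and 9.16% in RC, so few cells did not carry the sum.

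*Cxcr2* was near background in monocyte-like cells, with 6 UMIs in SAA and 2 in RC. No ratio is given for so few UMIs. Its granulocyte-like cells are described further on.

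The retention receptor *Cxcr4* had 181 UMIs in 93 monocyte-like SAA cells, against 270 UMIs in 126 RC cells. It stood at 99.4 CPM (85.4–114.9) in SAA and 206.4 CPM (182.5–232.5) in RC, a ratio of 0.481 (0.397–0.583). The share of cells with a UMI was 36.0% in SAA and 37.5% in RC as sequenced, but 18.1% (13.5–23.5%) and 31.3% (25.7–37.3%) after thinning to equal depth. That thinning left out 15 SAA and 74 RC cells as too shallow, and a depth of 1300 UMIs, which kept every cell, gave 14.0% (9.97–18.8%) in SAA and 16.4% (12.6–20.8%) in RC, with overlapping intervals. This call was close to its limit: the ratio was 0.514 with the TMM factors of edgeR, 0.516 with the median gene ratio set to 1, 0.512 after thinning and 0.568 with cells weighted equally, none of them past 2-fold.

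*Ccr1*, a receptor of inflammatory CC chemokines, had 177 UMIs in 106 monocyte-like SAA cells and 82 UMIs in 67 RC cells. Its level was 97.2 CPM (83.4–112.6) in SAA and 62.7 CPM (49.9–77.8) in RC, a ratio of 1.55 (1.19–2.04), which was not past 2-fold. After thinning the shares overlapped in their intervals, at 20.6% (15.7–26.2%) of SAA and 14.9% (10.8–19.8%) of RC cells. *Ccrl2* had 11 UMIs in 9 SAA cells and 1 UMI in 1 RC cell, too few for a comparison.

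Of the 4 members with at least 20 UMIs in monocyte-like cells, *Cx3cr1* and *Cxcr4* were thus called lower and none was called higher. *Cx3cr1* (4 UMIs in SAA, 248 in RC) reached 20 UMIs only through RC, so its direction in this count was fixed by the minimum. Over all genes 8.83% were called lower and 7.3% higher.

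In granulocyte-like cells the neutrophil egress receptor *Cxcr2* was higher in SAA. It had 284 UMIs in 168 of 435 SAA cells, against 49 UMIs in 41 of 323 RC cells. The level was 82.0 CPM (72.8–92.1) in SAA and 19.4 CPM (14.3–25.6) in RC, a ratio of 4.24 (3.12–5.86). The 10 cells with the most *Cxcr2* held 17.3% of its UMIs in SAA and 36.7% in RC. After thinning, 19.7% (16.0–23.8%) of SAA and 2.48% (1.08–4.84%) of RC cells held a UMI. The RC share rests on 8 cells of a random draw, and its mean over all draws was 4.74%, against 19.7% in SAA. In that draw the ratio of CPM was 8.55. Monocyte-like cells, taken as the background, held *Cxcr2* in 0.823% of thinned SAA and 0.382% of thinned RC cells.

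*Cxcr4* was found in most granulocyte-like cells of both libraries and was lower in SAA. It had 586 UMIs in 289 SAA cells (66.4%) and 564 UMIs in 248 RC cells (76.8%). The level was 169.3 CPM (155.8–183.5) in SAA and 222.9 CPM (204.9–242.1) in RC, a ratio of 0.759 (0.675–0.854), which was not past 2-fold. After thinning, 35.6% (31.1–40.3%) of SAA and 44.7% (39.2–50.3%) of RC cells held a UMI.

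*Ccr1* had 118 UMIs in 93 granulocyte-like SAA cells and 28 UMIs in 26 RC cells. This gave 34.1 CPM (28.2–40.8) in SAA and 11.1 CPM (7.35–16.0) in RC, a ratio of 3.08 (2.03–4.83). Under the alternatives this ratio ran from 2.37 after thinning to 4.24 without the 10 cells with the most UMIs. After thinning, 8.90% (6.37–12.01%) of SAA and 4.04% (2.17–6.80%) of RC cells held a UMI, with overlapping intervals. *Cx3cr1* had 6 UMIs in SAA and 1 in RC, and *Ccrl2* 4 in SAA and 5 in RC, too few for a comparison.

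*Ccr2* RNA of the granulocyte-like class came from few cells that also held monocyte genes. It had 259 UMIs in 42 SAA cells, against 51 UMIs in 15 RC cells. The level was 74.8 CPM (66.0–84.5) in SAA and 20.2 CPM (15.0–26.5) in RC, a ratio of 3.71 (2.74–5.12). Cells with *Ccr2* had a median of 11 UMIs of the 4 monocyte genes of the class rule in SAA and 13 in RC, and cells without it a median of 0 in both. They also held fewer UMIs of the 8 granulocyte genes, with medians of 29.5 in SAA and 38 in RC, against 495 in SAA and 628 in RC for cells without *Ccr2*. Every cell of the class whose granulocyte sum was under 2 times its monocyte sum held *Ccr2*, 18 cells with 143 UMIs in SAA and 6 cells with 30 UMIs in RC. The 10 cells with the most *Ccr2* held 52.5% of its UMIs in SAA and 86.3% in RC. Without those 10 cells of each library the ratio was 12.99, and after thinning it was 2.35. The share of cells with a *Ccr2* UMI was 7.26% (4.99–10.1%) in SAA and 3.42% (1.72–6.03%) in RC after thinning to 2600 UMIs, and 2.99% (1.60–5.06%) in SAA and 2.48% (1.08–4.82%) in RC at 1300 UMIs, with overlapping intervals at both depths. None of the *Ccr2* cells held 3 or more UMIs of T or NK markers once *Nkg7* and *Cd3d*, which granulocyte-like cells of both libraries also held, were set aside.

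*Cxcr2*, *Ccr2* and *Ccr1* were thus called higher among the 4 members with at least 20 UMIs in granulocyte-like cells, and none was called lower. Over all genes 6.8% were called higher and 4.92% lower.

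**Figure D2:**
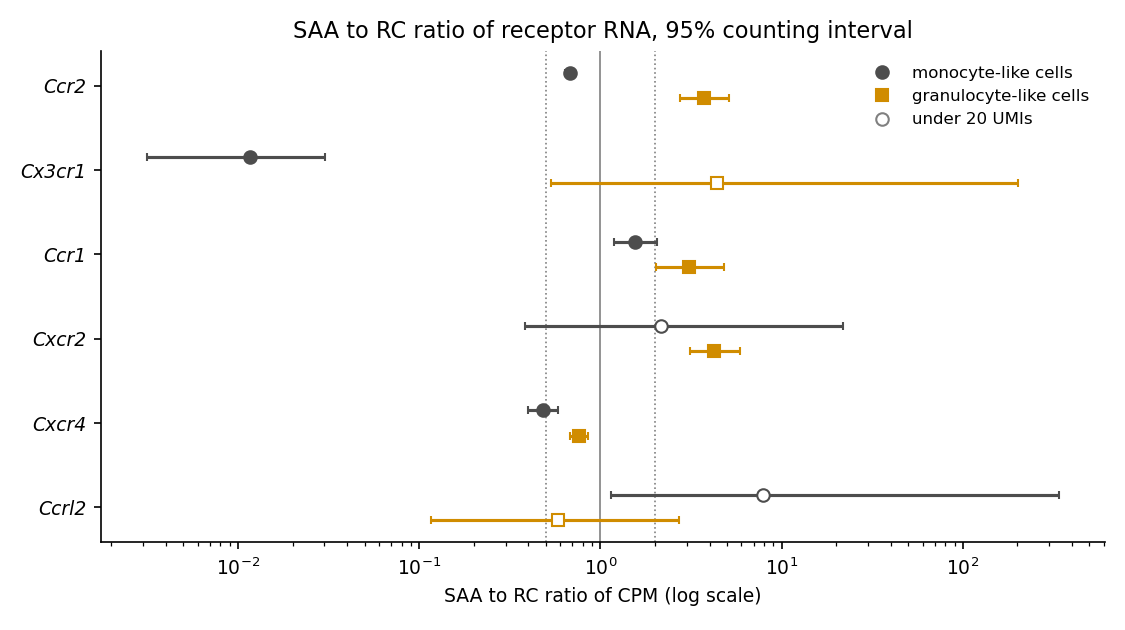
SAA to RC ratio of CPM for each receptor in both classes (log scale) with exact conditional 95% intervals. Open symbols rest on fewer than 20 UMIs, the solid line marks equal levels and the dotted lines mark 2-fold. *Ccr2* lies below the solid line in monocyte-like cells (0.682) and above it in granulocyte-like cells (3.71).

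The classes were next compared within each library. The granulocyte-like to monocyte-like ratio of *Ccr2* was 0.0747 (0.0653–0.0851) in SAA and 0.0137 (0.0102–0.0181) in RC. With cells kept only if one sum was at least 2 times the other, it was 0.0332 in SAA and 0.00576 in RC. *Cxcr2* showed the opposite distribution, with ratios of 24.9 (11.3–68.4) in SAA and 12.7 (3.32–107.5) in RC. *Ccr1* was lower in granulocyte-like cells, at 0.351 (0.276–0.445) in SAA and 0.177 (0.111–0.274) in RC. *Cxcr4* was higher in granulocyte-like cells of SAA, at 1.70 (1.44–2.02), whereas in RC the interval of its ratio of 1.08 (0.932–1.25) held 1. In RC it was 0.809 in cells with at least 1500 genes and at most 10% mitochondrial UMIs. *Cx3cr1* had 1 UMI in granulocyte-like and 248 in monocyte-like cells of RC, and 6 and 4 in SAA. Over all genes the median log2 ratio of granulocyte-like to monocyte-like cells was -0.36 in SAA and -0.42 in RC, so relative to the median gene every ratio is higher, and that of *Cxcr4* becomes 2.18 in SAA and 1.44 in RC.

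The balance of the retention receptor to the egress receptors was then taken as *Cxcr4* UMIs per UMI of the egress receptor, which uses no library total. In monocyte-like cells there were 0.0992 *Cxcr4* UMIs per *Ccr2* UMI in SAA and 0.141 in RC, a ratio of 0.706 (0.575–0.865). In cells with at least 1500 genes and at most 10% mitochondrial UMIs this was 0.489. Against *Cx3cr1*, the balance differed the other way, with 45.3 UMIs per *Cx3cr1* UMI in SAA and 1.09 in RC, a ratio of 41.6 (15.5–156.0). In granulocyte-like cells *Cxcr4* stood at 2.06 UMIs per *Cxcr2* UMI in SAA and 11.5 in RC, a ratio of 0.179 (0.127–0.250). Against *Ccr2*, *Cxcr2* and *Cx3cr1* together it was 1.07 in SAA and 5.58 in RC, a ratio of 0.191 (0.149–0.245), and in monocyte-like cells 0.0986 and 0.124, a ratio of 0.793 (0.647–0.971). *Cxcr4* was therefore lower in SAA relative to the 3 egress receptors summed, in both classes. That sum adds UMIs of genes whose capture can differ. In monocyte-like cells *Ccr2* made up 1825 of its 1835 UMIs in SAA and 1921 of 2171 in RC, so it says little of *Cx3cr1*. In granulocyte-like cells *Ccr2* made up 259 of 549 UMIs in SAA and 51 of 101 in RC, from the few cells that also held monocyte genes.

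Single cells, thinned to 2600 UMIs, were sorted by whether they held *Cxcr4* and any egress receptor. Among monocyte-like cells, 14.8% (10.6–19.9%) in SAA and 29.8% (24.3–35.7%) in RC held both. Cells with an egress receptor alone made up 70.0% (63.8–75.7%) in SAA and 65.6% (59.6–71.4%) in RC. Cells with neither made up 11.9% (8.14–16.7%) in SAA and 3.05% (1.33–5.93%) in RC. Among granulocyte-like cells, *Cxcr4* alone was held by 25.5% (21.5–29.9%) in SAA and 41.6% (36.2–47.2%) in RC. An egress receptor alone was held by 16.6% (13.2–20.5%) in SAA and 2.48% (1.08–4.84%) in RC. These shares come from 1 random draw, which was low for *Cxcr2* in RC. There it was held by 2.48% of granulocyte-like cells, against a mean of 4.74% over all draws. A cell without a UMI at this depth can still express the gene.

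**Figure D3:**
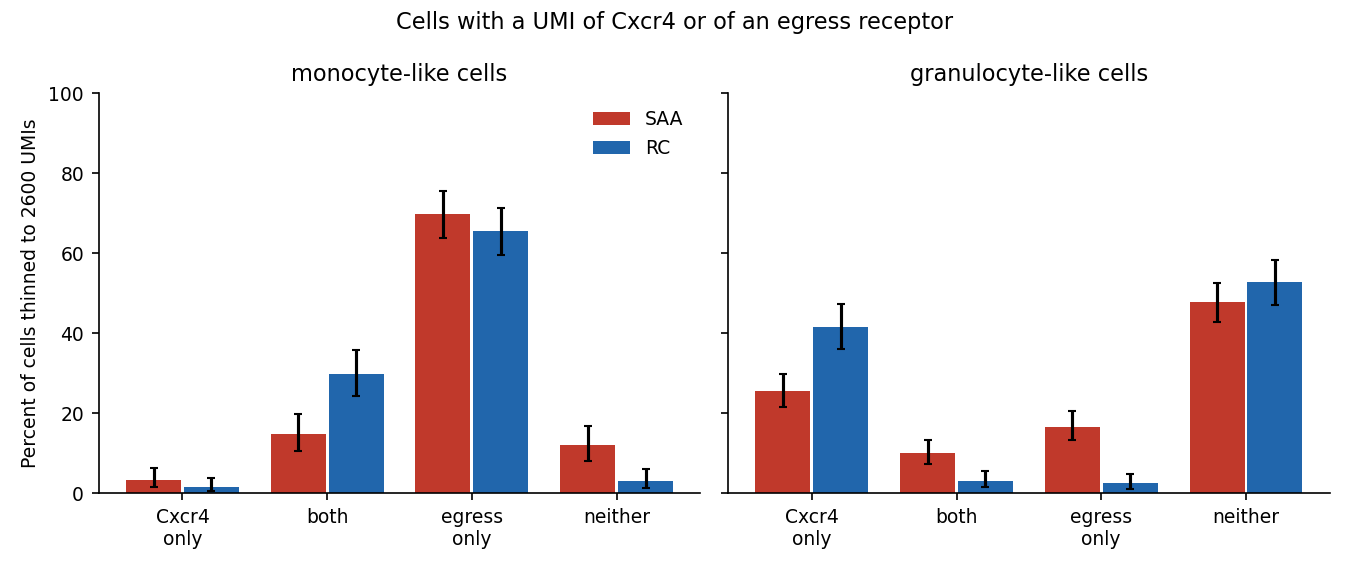
Percent of cells thinned to 2600 UMIs that held a UMI of *Cxcr4* only, of *Cxcr4* and an egress receptor (*Ccr2*, *Cxcr2* or *Cx3cr1*), of an egress receptor only, or of neither, with Clopper-Pearson 95% intervals. Monocyte-like cells with both were 14.8% in SAA and 29.8% in RC, and granulocyte-like cells with an egress receptor only were 16.6% in SAA and 2.48% in RC.

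Co-detection of *Cxcr4* with the egress receptors was counted in the same thinned cells. In granulocyte-like SAA cells *Cxcr4* was held by 39.3% (28.8–50.5%) of cells with *Cxcr2* and 34.7% (29.7–40.0%) of cells without it. In monocyte-like RC cells *Cxcr4* was held by 21.0% (12.7–31.5%) of the 81 cells with *Cx3cr1* and 35.9% (28.9–43.4%) of the 181 cells without it. These intervals overlap.

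Cells of each class were split into ranges of maturity, which are ranges of a per-cell score and not cell types. Monocyte-like cells were split at the joint median share of UMIs from 28 cell cycle genes (0.0421%), with 33 cells within 10% of that value. More cell cycle RNA was found in 168 of 258 SAA cells and 129 of 336 RC cells. These cells were deeper than those with less, with medians of 7200.5 and 4464 UMIs in SAA and of 4655 and 2872 UMIs in RC, and the part of depth in the split was not tested. Granulocyte-like cells were first divided by whether UMIs of *Elane*, *Mpo*, *Prtn3* and *Ctsg*, azurophil granule genes of early granulopoiesis, outnumbered those of *Camp* and *Ngp*, specific granule genes of later stages. Cells without that excess, called specific here, were split at their joint median of 0.587%, with 119 cells within 10% of it.

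*Cxcr4* followed the cell cycle range in monocyte-like cells of both libraries. It was 6.33 (3.26–14.1) times higher in cells with more cell cycle RNA in SAA and 4.91 (3.55–6.92) times higher in RC. In cells with more cell cycle RNA it stood at 125.7 CPM in SAA and 340.9 CPM in RC, a ratio of 0.369 (0.301–0.452). In cells with less it stood at 19.8 CPM in SAA and 69.4 CPM in RC, a ratio of 0.286 (0.123–0.592). Within either range the ratio was thus further from 1 than the 0.481 of the whole class, where SAA had more of the cells rich in *Cxcr4*. In granulocyte-like cells *Cxcr4* varied little over the ranges, from 162.7 to 175.4 CPM in SAA and from 206.8 to 237.5 CPM in RC.

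*Cx3cr1* showed the opposite order in RC monocyte-like cells, at 0.307 (0.225–0.413) times the level in cells with more cell cycle RNA. The cells with less cell cycle RNA had 0 UMIs in SAA, against 189 in RC, so that the ratio had an exact upper limit of 0.0282. The cells with more had 4 UMIs in SAA and 59 in RC, a ratio of 0.0327 (0.00863–0.0882). *Ccr2* was also lower in cells with more cell cycle RNA, by a ratio of 0.850 (0.767–0.943) in SAA and 0.663 (0.604–0.727) in RC. Its SAA to RC ratio was 0.818 (0.748–0.895) with more and 0.638 (0.574–0.709) with less cell cycle RNA. *Ccr1* was at a ratio of 2.52 (1.63–3.96) in cells with less cell cycle RNA, and its interval held 1 in cells with more (1.18, 0.833–1.68).

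In SAA, *Cxcr2* lay almost wholly in granulocyte-like cells with specific granule RNA. It stood there at 80.7 CPM with more and 123.7 CPM with less cell cycle RNA, against 6.43 CPM in azurophil cells. In RC the same ranges stood at 15.4, 27.6 and 14.4 CPM. The SAA to RC ratio was 5.23 (3.11–9.42) with more and 4.49 (2.90–7.23) with less cell cycle RNA, and azurophil cells had 4 UMIs in SAA and 9 in RC. *Ccr1* was also higher in the specific SAA cells with less than in those with more cell cycle RNA, by a ratio of 1.68 (1.12–2.52), whereas the interval of that ratio held 1 in RC (0.510, 0.161–1.41). *Ccr2* lay mostly in azurophil cells, with 211 of 259 UMIs in SAA and 47 of 51 in RC, where its level was 339.0 CPM in SAA and 75.4 CPM in RC. Cells with *Ccr2* made up 31 of the 47 azurophil cells in SAA and 12 of the 56 in RC. As given above, cells of the class with *Ccr2* also held monocyte genes. The difference in level was not separated from which cells fell into this range.

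**Figure D4:**
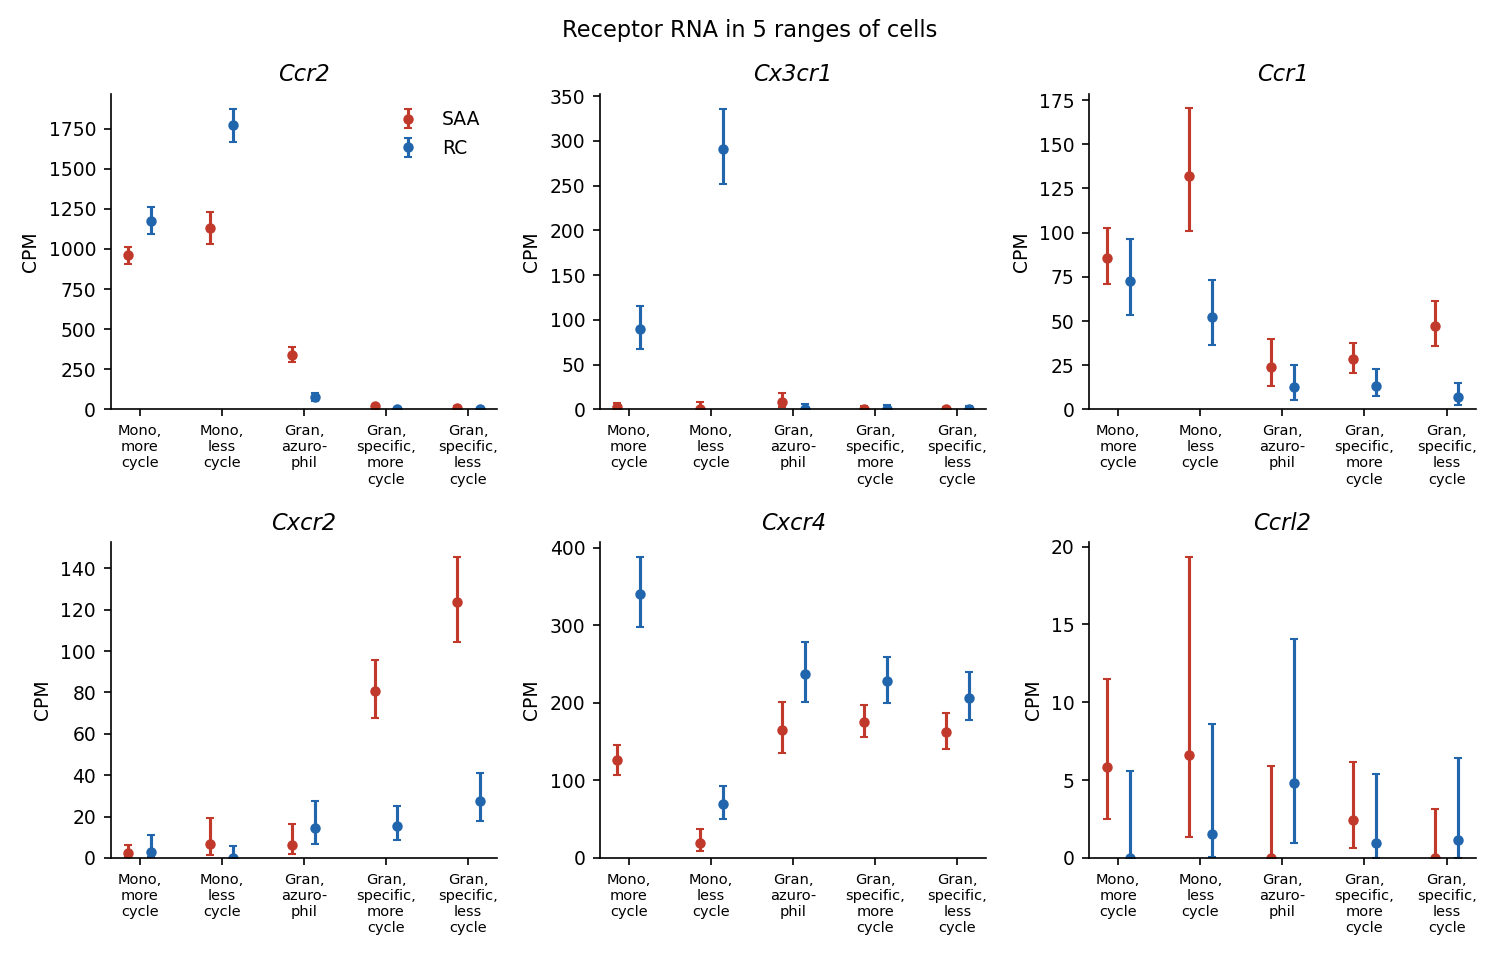
CPM of each receptor in 5 ranges of cells in the SAA library and the RC library, with exact Poisson 95% intervals; each panel has its own scale. *Cxcr4* in monocyte-like cells stands at 125.7 CPM in SAA and 340.9 CPM in RC with more cell cycle RNA, and at 19.8 CPM in SAA and 69.4 CPM in RC with less, and *Cxcr2* in SAA stands at 123.7 CPM in specific cells with less cell cycle RNA.

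Of 18 other chemokine receptors examined, most were at or near 0 UMIs. *Cmklr1*, a signalling receptor of chemerin, had 25 UMIs in monocyte-like SAA cells and 2 in RC. It reached 20 UMIs only through SAA, so its direction was fixed by the minimum and no ratio is given. *Cxcr6* and *Cxcr3*, receptors known from T cells, had 33 and 9 UMIs in the SAA cells with equal sums, and 12 and 6 in granulocyte-like SAA cells. *Ccr10* had 5 UMIs in granulocyte-like SAA cells and 1 in RC. None of the other receptors of that list reached 20 UMIs in a class.

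The longest run of bases that *Ccr1* transcripts shared with those of *Ccr3* was 47, and *Ccr3* had 2 UMIs over all classes.

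Of 18 genes of ligands for these receptors, 5 had at least 20 UMIs in monocyte-like cells, 2 called higher and 2 lower in SAA. Over all genes 7.3% were called higher and 8.83% lower. No median is given, because *Ccl5*, among those called higher, reached 20 UMIs only through SAA. *Ccl6* and *Ccl9*, ligands of CCR1 made by myeloid cells themselves, were at ratios of 0.2002 (0.176–0.227) and 0.138 (0.108–0.173). *Ccl6* had 174.0 CPM in SAA and 869.1 CPM in RC, and *Ccl9* 48.3 CPM in SAA and 350.9 CPM in RC. *Mif*, which can bind CXCR2 and CXCR4, had 332.6 CPM in SAA and 100.1 CPM in RC, a ratio of 3.32 (2.75–4.04). *Ccl5*, a ligand of CCR1, had 61 UMIs in SAA and 1 in RC. *Ccl5* reached 20 UMIs only through SAA, so its direction was fixed by the minimum. In granulocyte-like cells 4 ligand genes had at least 20 UMIs. *Ccl4* (41 UMIs in SAA, 0 in RC), *Ccl5* (108 in SAA, 0 in RC) and *Ccl6* (44 in SAA, 11 in RC) had them only through SAA. No median and no ratio of these genes is therefore given. There *Mif* was at 1.89 (1.63–2.19). T and NK cells also make *Ccl5*. The 10 markers of those cells summed to 38.4 CPM in SAA and 2.29 CPM in RC in monocyte-like cells, with 2 and 8 of them at 0, and to 325.8 CPM in SAA and 402.3 CPM in RC in granulocyte-like cells, with 1 and 8 at 0. Of the granulocyte-like sums *Nkg7* made up 785 UMIs in SAA and 983 in RC, and *Cd3d* 85 in SAA and 35 in RC. The T cell genes among them pointed the other way than the sum, with 49 UMIs of *Cd3e* and 21 of *Cd3g* in SAA and 0 of both in RC. Their part in the *Ccl5* values was not tested.

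Of 37 genes for signalling, desensitization and adhesion downstream of the receptors, 34 had at least 20 UMIs in monocyte-like cells. In SAA 0 of them were called higher and 7 lower, where 7.3% of all genes were called higher and 8.83% lower. Those called lower include a gene with 18 UMIs in SAA and 27 in RC, which reached 20 UMIs only through RC. The median log2 ratio of the list was -0.30, against -0.06 over all genes. *Gnai2*, the main inhibitory G protein subunit of leukocytes, was at 0.940 (0.871–1.01) and *Gnb2* at 1.03 (0.929–1.14). *Gng5*, a further G protein subunit, was at 0.715 (0.660–0.774), and *Rac2*, a GTPase that drives actin in moving cells, at 0.810 (0.716–0.916). In granulocyte-like cells 33 had at least 20 UMIs, 4 called higher and 1 lower, with a median of 0.28 against 0.05. Those called higher include genes with 33 UMIs in SAA and 12 in RC, and with 24 and 6. These reached 20 UMIs only through SAA, so the counts are descriptions only. Over all genes of that class 6.8% were called higher and 4.92% lower. There *Gnai2* was at 1.22 (1.14–1.29), *Gnb2* at 1.43 (1.32–1.55), *Rac2* at 1.05 (0.999–1.11) and *Gng5* at 0.678 (0.644–0.714).

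Maturation genes were set beside the receptors. For the counts below, 7.3% of all genes were called higher and 8.83% lower in monocyte-like cells. In granulocyte-like cells these shares were 6.8% and 4.92%. Of 15 genes of Ly6C-low monocytes, 7 had at least 20 UMIs in monocyte-like cells, 1 called higher and 4 lower, with a median log2 ratio of -1.17 against -0.06. *Klf2* and *Pou2f2*, transcription factors, were at 0.446 (0.349–0.567) and 0.389 (0.301–0.501), beside the lower *Cx3cr1*. *Spn*, which encodes CD43, was at 0.673 (0.520–0.871) and the transcription factor gene *Cebpb* at 1.28 (1.17–1.39). In granulocyte-like cells 7 of these 15 had at least 20 UMIs, 3 called higher and 1 lower, with a median of 0.42. Of 20 neutrophil maturation genes, 18 had at least 20 UMIs in granulocyte-like cells, with 5 called higher and 0 lower and a median of 0.36, against 0.05 over all genes. The granule protein genes *Ltf*, *Lcn2*, *Pglyrp1* and the lectin gene *Chil3* were at 1.41 (1.38–1.45), 1.27 (1.24–1.29), 1.15 (1.12–1.19) and 1.03 (1.003–1.06), all nearer to 1 than the 4.24 of *Cxcr2*. In monocyte-like cells 10 of the 20 had at least 20 UMIs, 4 called higher and 4 lower, with a median of -0.12. These counts and medians include genes that reached 20 UMIs only through the library where they were higher, and are descriptions only. In monocyte-like cells the Ly6C-low gene called higher had 62 UMIs in SAA and 5 in RC. Neutrophil maturation genes called there included UMIs of 58 and 0, and of 7 and 135. In granulocyte-like cells, called Ly6C-low genes had 36 and 8, 20 and 6, or 11 and 34, and a neutrophil maturation gene 28 and 4.

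The genes most like each receptor over the 10 sums of 5 ranges and 2 libraries were found by Pearson's r of log2(CPM + 10), among 5107 genes with at least 200 UMIs. *Ccr2* was followed most closely, by *Pld4* (r = 0.998), *Sh3glb1* (r = 0.997) and *Psap* (r = 0.997). *Cx3cr1* was closest to *Pnisr* (r = 0.97), *Rchy1* (r = 0.96) and *Camkk2* (r = 0.95), and *Ccr1* to *Azi2* (r = 0.97), *Peli1* (r = 0.96) and *Chmp2a* (r = 0.95). *Cxcr2* was closest to *Asns* (r = 0.96), *Npepps* (r = 0.95) and *Ncf1* (r = 0.94), and *Cxcr4* to *H2afz* (r = 0.96), *Spn* (r = 0.95) and *Nup107* (r = 0.95). The 10 sums share 2 libraries and are not independent, so these values are descriptions only. *Ccrl2* had too few UMIs for this comparison.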

How the data were processed

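The deposited files hold raw UMI counts of Chromium 5′ v2 libraries per gene and barcode. Cell Ranger 6.0.1 and mm10 are named in the submitters' processing notes, and the deposited counts are not normalized. The study's filter of at least 1000 genes was used, and no retained barcode exceeded its limit of 25% mitochondrial UMIs. The day of harvest for these libraries is not given in the sources used here.

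Sums of UMIs per library and class were scaled to 1000000. Ratios, intervals and shares were computed in Python 3.11.15 (scipy 1.17.1, numpy 2.4.6, pandas 2.3.3), and no p-value was computed between 2 single libraries. The conditional binomial interval of a ratio was tested on simulated counts. For thinning, a depth of 2600 UMIs was taken, near the percentile 10 of retained cells. Coordinates and sequences come from GENCODE M21, matched by identifier, which is not stated to be the authors' release.

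The receptors, classes and gene lists were chosen with earlier results of these data known. The other genes named are the 4 most abundant of each list by UMIs over both classes, any other chemokine receptor with at least 20 UMIs in a class, and the 3 genes most like each receptor. The values of 1 gene that this rule selects, and 1 of the sequences, are not reported here. Alternatives changed the cell filter, the class margin, T or NK marker cells, doublets called by Scrublet in scanpy 1.11.5 (7 cells in SAA and 1 in RC, kept otherwise), the library scaling (TMM of edgeR 4.0.16, or the median of gene ratios), the weight of cells, the depth and the minimum of UMIs. The T or NK list without *Nkg7* and *Cd3d*, leaving out the 10 cells with the most UMIs of a receptor, and the mean share over all thinning draws were added after seeing the data.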

Additional observations from a re-analysis of the deposited data

Results flagged for a closer look

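*Ccr2* was lower in SAA than in RC in monocyte-like cells and higher in granulocyte-like cells, so that the SAA to RC ratio in granulocyte-like cells was 5.44 (3.98–7.55) times that in monocyte-like cells. With 1 library per condition this difference was not tested. Its interval takes each UMI as independent, although 10 cells held 52.5% of the granulocyte-like *Ccr2* UMIs in SAA and 86.3% in RC. The granulocyte-like value rests on 42 cells in SAA and 15 in RC, which held monocyte genes as well.

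The barcodes with fewer than 1000 genes, 96 in SAA and 136 in RC, were left out of every value in the report and entered only the alternative with no minimum of genes, and yet held receptor UMIs. *Ccr1* had 13 UMIs in SAA and 7 in RC, at 93.5 CPM in SAA and 31.5 CPM in RC. *Cxcr2* had 16 UMIs in SAA and 4 in RC, at 115.1 CPM in SAA and 18.0 CPM in RC. *Cxcr4*, lower in SAA in both classes of retained cells, had 29 UMIs in SAA and 48 in RC, at 208.7 CPM in SAA and 216.0 CPM in RC, and the interval of its ratio held 1 (0.966, 0.587–1.56). *Ccr2* was at a ratio of 0.349 (0.257–0.467), with 57 UMIs in SAA and 261 in RC, and *Cx3cr1* had 1 UMI in SAA and 57 in RC.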

How the results depend on the processing

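No paired analysis was possible because each condition had 1 library. For the receptors, 118 SAA to RC ratios were computed under alternatives that changed the cells or the scaling. Of these, 106 stayed within the counting interval of the main value and 12 left it. None of those whose main interval lay to one side of 1 crossed 1. Of 107 ratios between classes 82 stayed within it, of 43 balances 37 and of 150 shares 127. These numbers include members with under 20 UMIs in a class. Their ratios have wide counting intervals, so staying within them says little. Values whose cells an alternative left as they were, such as all those under the limit of 25% mitochondrial UMIs, are not counted. Of the receptors with under 20 UMIs in a class, *Ccrl2* had 11 UMIs in SAA and 1 in RC in monocyte-like cells, and its ratio of 7.90 was 1.08 after thinning.

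In cells with at least 1500 genes and at most 10% mitochondrial UMIs the SAA to RC ratio in monocyte-like cells was 0.732 for *Ccr2* and 0.358 for *Cxcr4*, and the ratio of *Cxcr4* to *Ccr2* was 0.489 and to all 3 egress receptors 0.536. The share with a UMI in RC monocyte-like cells was then 23.9% for *Cx3cr1* and 41.7% for *Cxcr4*, that of *Cxcr2* in granulocyte-like SAA cells 15.3%, and the class ratio of *Cxcr4* in RC 0.809. With TMM factors the SAA to RC ratio of *Ccr2* in monocyte-like cells was 0.728, and with the median gene ratio set to 1 it was 0.731. With these 2 scalings the granulocyte-like to monocyte-like ratio in SAA was 0.455 and 0.449 for *Ccr1*, 0.0968 and 0.0956 for *Ccr2* and 2.21 and 2.18 for *Cxcr4*, and in RC 0.0185 and 0.0183 for *Ccr2* and 1.45 and 1.44 for *Cxcr4*. With a class margin of 2 the class ratio of *Ccr2* was 0.0332 in SAA and 0.00576 in RC, and its granulocyte-like share 3.67% in SAA and 1.58% in RC. Without cells holding T or NK markers, *Nkg7* and *Cd3d* included, the SAA to RC ratio of *Ccr2* in granulocyte-like cells was 2.74, its class ratio 0.0956 in SAA and 0.0239 in RC, and the ratio of *Cxcr4* to *Ccr2* 0.295. Thinning gave SAA to RC ratios in granulocyte-like cells of 2.35 for *Ccr2* and 8.55 for *Cxcr2*, class ratios of 0.0449 for *Ccr2* in SAA and 1.36 for *Cxcr4* in RC, and *Cxcr4* to *Ccr2* and *Cxcr2* ratios of 0.319 and 0.0878. Equal weight of cells gave 2.43 for *Ccr2* in granulocyte-like cells, a class ratio of 0.0463 for *Ccr2* in SAA and one of 1.42 for *Cxcr4* in RC. Without the 10 cells with the most UMIs the ratio of *Ccr2* in granulocyte-like cells was 12.99 and that of *Cx3cr1* in monocyte-like cells 0, its 4 SAA cells being among those left out. Without Scrublet doublets the class ratio of *Cx3cr1* in RC was 0, its only UMI lying in a called doublet.

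Thinning to 1300 UMIs lowers shares by construction. In monocyte-like cells of SAA and RC it gave 12.8% and 8.04% for *Ccr1*, 68.2% and 80.7% for *Ccr2* and 0% and 23.2% for *Cx3cr1*, and 14.0% and 16.4% for *Cxcr4*. In granulocyte-like cells of SAA and RC it gave 5.75% and 2.79% for *Ccr1*, 2.99% and 2.48% for *Ccr2*, 10.1% and 2.17% for *Cxcr2* and 19.8% and 28.2% for *Cxcr4*. With at least 50 UMIs per gene fewer genes were counted, 424 at least 2-fold lower in monocyte-like cells of SAA (750 at 20 UMIs), and 403 higher and 208 lower in granulocyte-like cells (606 and 438). The median log2 ratio in monocyte-like cells was then -0.29 for the ligands, opposite in sign to the 0.20 at 20 UMIs. Both ligand medians include *Ccl5*, which reached the minimum only through SAA. The median was -0.87 for the Ly6C-low list and 0.66 for neutrophil maturation, the latter also opposite in sign. These lists too include genes that reached the minimum only through a single library. In granulocyte-like cells it was 1.55 for the ligands (2.43 at 20 UMIs, with 2 of the 4 genes at 0 in RC). With log2(CPM + 1), 11 of the 15 genes most like a receptor were again among its 3 closest. Except where stated, the cause of these shifts was not tested.

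Members with fewer than 20 UMIs are limited by depth, as is any share of cells near 0. Retention and egress name known roles of the receptors, and only RNA was measured.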
